A study of Mus musculus with 12 samples.

Results

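The Toll-like receptor genes Tlr1 to Tlr9 and the adaptor gene Myd88 were followed in mouse back skin with and without imiquimod (IMQ). They were chosen by symbol, with earlier results of these data known, and all 10 were found among the 18505 genes of the deposited expression table. IMQ is a small-molecule agonist of TLR7, the receptor encoded by Tlr7. The study applied IMQ cream to raise psoriasis-like lesions and then treated the lesions with the herbal Banzhilian formula (BZLF).

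Bulk RNA-seq was made from the skin of 12 wild-type (WT) male BALB/c mice taken on day 10, 4 in each of 3 groups. The mice were aged 5 to 6 weeks, their backs had been shaved, and treatment was daily. Control mice received petroleum jelly by the methods, while the labels describe their handling as blank. In the IMQ + NS group the cream lay on the skin for 6 h and was followed by saline under gauze and film. The IMQ + BZLF group had the same cream for the same time, followed by BZLF under the same cover. No group had BZLF without IMQ, and the dose of BZLF in the sequenced mice was not given in the sources used here. The cream carries its own vehicle, so IMQ and the cream base cannot be told apart. The methods name no dressing or cover for the control group, so in comparisons with control these cannot be told apart from IMQ either. The labels do not name individual mice, so the spread of 4 samples in a group is that between samples.

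Toll-like receptors recognize molecules of microbes and damaged cells. TLR1, TLR2, TLR4, TLR5 and TLR6 sit mainly at the cell surface and detect lipoproteins, lipopolysaccharide or flagellin, whereas TLR3, TLR7, TLR8 and TLR9 sit in endosomes and detect nucleic acids. MyD88 couples all of these except TLR3 to IRAK kinases and TRAF6, which lead to NF-kappa B and, in some cells, to interferon genes. In skin the receptors are found on keratinocytes and, at higher levels for many of them, on macrophages, dendritic cells, neutrophils and B cells. Bulk RNA cannot tell fewer cells of a type from less RNA per cell.

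Expression was given as FPKM, a fragment count divided by transcript length and by library depth, so levels can be compared between genes. Small differences between samples depend on the scaling, because the totals of the samples differed by group. They lay between 444660 and 461199 FPKM in control, 492551 and 506622 FPKM in IMQ + NS and 476676 and 493935 FPKM in IMQ + BZLF samples. The number of reads behind a value is unknown. The labelled tissue was checked with keratinocyte markers, of which 8 of 8 were above 0, with a summed level of 2490 to 4260 FPKM in the control group. Control replicate 2 stood apart from the other controls, with 1490 FPKM in 10 hair shaft genes against 21.5 FPKM in the lowest control. These genes summed to 9830 to 13200 FPKM in IMQ + NS and 12400 to 18100 FPKM in IMQ + BZLF samples. Skeletal muscle markers summed to 3420 to 8540 FPKM in control, 637 to 1490 in IMQ + NS and 1090 to 1520 in IMQ + BZLF. Fibroblast markers summed to 13100 to 18600, 3680 to 4890 and 4290 to 8110 FPKM in the same order of groups. The part of these tissue differences in the receptor levels was not tested. Seminal vesicle genes, which do not belong to skin, summed to 40.8 FPKM in control replicate 2 and 39.9 FPKM in IMQ + BZLF replicate 2. In IMQ + NS samples the same sum reached at most 0.0248 FPKM.

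On the mm10 (GRCm38) genome, the members lie on 7 chromosomes. Tlr1 (chr5:64924679-64933563) and Tlr6 (chr5:64952031-64960097) are neighbours on the minus strand, and so are Tlr8 (chrX:167242696-167264329) and Tlr7 (chrX:167304929-167330558). Tlr9 (chr9:106222598-106226883) lies on the plus strand of the chromosome that also holds Myd88 (chr9:119335934-119341411, minus strand). The others are Tlr5 (chr1:182954788-182976044, plus strand), Tlr2 (chr3:83836272-83841767, minus strand), Tlr4 (chr4:66827584-66930284, plus strand) and Tlr3 (chr8:45395665-45411080, minus strand). The coding sequences range from 888 bases in Myd88 to 3150 bases in Tlr7, and that of Tlr9 has the highest GC content, 56.7%.

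Tlr1 and Tlr6, which encode the 2 alternative partners of TLR2, share more sequence than any other pair of members. Of the 2976 different words of 50 bases in the Tlr1 transcript, 454 (15.3%) also occur in Tlr6. The longest identical coding run of the pair is 229 bases, against 16 bases for the next pair, Tlr3 and Tlr4. The stretches below hold that run with 30 bases on each side, from the GENCODE vM21 transcripts of the C57BL/6J reference (chr5:64925507-64925795 for Tlr1, chr5:64953798-64954086 for Tlr6, minus strand). Capitals mark the 2 of 289 bases that differ, and a read within the identical run could have been assigned to either gene.
Tlr1: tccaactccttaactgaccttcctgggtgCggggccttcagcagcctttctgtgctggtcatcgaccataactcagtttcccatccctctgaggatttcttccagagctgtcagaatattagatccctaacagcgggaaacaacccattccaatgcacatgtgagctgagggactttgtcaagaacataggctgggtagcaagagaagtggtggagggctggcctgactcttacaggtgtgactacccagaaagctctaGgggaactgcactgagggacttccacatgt
Tlr6: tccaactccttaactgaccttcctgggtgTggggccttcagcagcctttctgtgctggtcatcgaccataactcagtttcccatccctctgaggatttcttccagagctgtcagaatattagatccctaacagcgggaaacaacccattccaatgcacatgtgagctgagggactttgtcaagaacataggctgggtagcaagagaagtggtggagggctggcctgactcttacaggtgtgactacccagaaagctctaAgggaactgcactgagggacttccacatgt

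Myd88 shares 175 of its 1911 words (9.16%) with the opposite strand of Acaa1a, a peroxisomal thiolase gene that overlaps it, and the sources differ on whether the libraries kept strand. Acaa1a averaged 43.5 FPKM in control, 32.7 FPKM in IMQ + NS and 30.1 FPKM in IMQ + BZLF samples. Tlr3 shares 1.56% of its words with the opposite strand of Gm45542. The other 6 members shared no word of 50 bases with another gene, on either strand.

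Myd88 was far more abundant than any receptor gene in every group. In control skin it averaged 22.5 ± 1.23 FPKM (SD, n = 4), whereas the receptors ranged from Tlr4 at 4.6 ± 0.816 FPKM to Tlr6 at 1.19 ± 0.219 FPKM. Over the 12 samples 83.2% of the genes in the table lay at or below the mean of Myd88, and 33.3% to 49.2% at or below those of the 9 receptors. In control skin the order of mean levels was Myd88, Tlr4, Tlr2, Tlr7, Tlr8, Tlr5, Tlr3, Tlr1, Tlr9 and Tlr6. The step from Myd88 to Tlr4 was the only step between neighbours beyond the spread, because the ranges of all other neighbours overlapped.

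In IMQ + NS skin the order was Myd88, Tlr2, Tlr1, Tlr8, Tlr4, Tlr7, Tlr9, Tlr3, Tlr6 and Tlr5. The ranges of neighbours did not overlap at the step below Myd88, nor at the last step, from Tlr6 to Tlr5. Tlr1 stood at rank 3 there, against rank 8 in control skin, and Tlr5 moved from rank 6 to rank 10. In IMQ + BZLF skin the order was Myd88, Tlr2, Tlr4, Tlr7, Tlr8, Tlr3, Tlr1, Tlr5, Tlr9 and Tlr6. The ranges of neighbours were apart below Myd88 and between Tlr1 and Tlr5.

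The summed level of the 9 receptors was 24.0 ± 3.69 FPKM in control, 24.7 ± 4.80 FPKM in IMQ + NS and 15.2 ± 2.80 FPKM in IMQ + BZLF samples (SD, n = 4). The highest IMQ + BZLF sum, 16.6 FPKM, was below the lowest of either other group, 19.8 and 19.9 FPKM. The endosomal receptors made up 40.9% ± 1.03, 40.4% ± 3.60 and 44.2% ± 2.19 of these sums in the same order of groups, with overlapping ranges. Tlr1 alone made up 7.26% ± 1.27, 17.6% ± 3.02 and 10.3% ± 1.46.

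**Figure D1:**
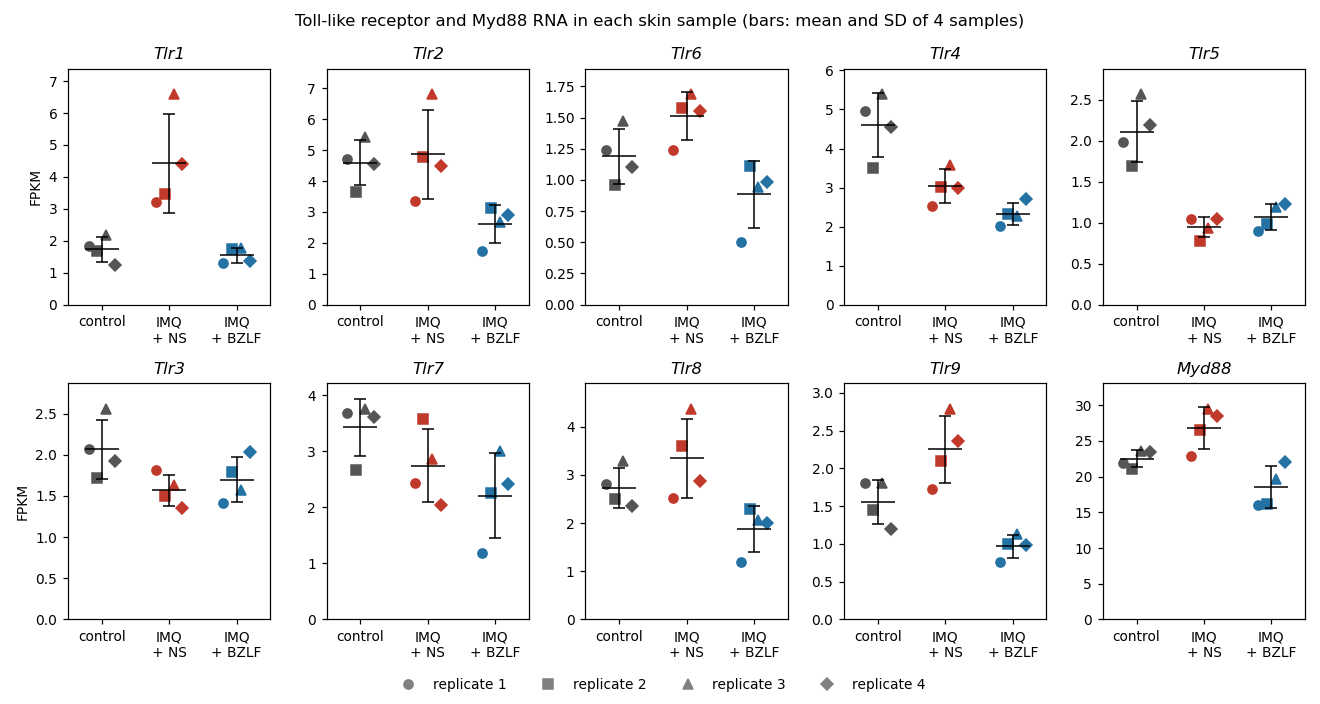
FPKM of the 10 genes in each of the 12 skin samples, 1 panel per gene with an axis from 0, marker shapes for replicates 1 to 4, and bars for the mean and SD of 4 samples. All 4 IMQ + NS samples lie above every control and IMQ + BZLF sample for Tlr1, and all 4 control samples lie above every IMQ-treated sample for Tlr5.

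The first comparison, IMQ + NS against control, shows how the receptors stood in the lesion itself. Tlr1 was 2.40-fold higher in the lesion, and Tlr5 and Tlr4 were 2.09-fold and 1.5-fold lower. Tlr7, the receptor of the applied drug, was not called in either direction. Differences were tested with limma on log2(FPKM + 0.1) in 15288 genes with a mean of at least 0.1 FPKM, all 10 members included. A gene was called at a Benjamini-Hochberg adjusted p under 0.05, and folds on this scale understate the change of low genes. Of the 10 members 3 were called higher (Tlr1, Tlr9 and Myd88) and 2 lower (Tlr4 and Tlr5), while 29.0% of all tested genes were called higher and 27.1% lower. These shares are near those of all genes, and the median log2 difference was 0.15 over the members and 0.05 over all tested genes.

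The second comparison, IMQ + BZLF against IMQ + NS, shares the IMQ + NS samples with the first. Here Tlr1 was 2.67-fold, Tlr9 2.18-fold and Myd88 1.46-fold lower after BZLF. No member was called higher (limma; 0 also at an unadjusted p under 0.05) and 3 were called lower, against 1.28% and 5.17% of all tested genes. The median log2 difference was -0.65 over the members and -0.02 over all tested genes, and 8 of 10 estimates were below 0.

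The third comparison sets IMQ + BZLF against control and shares samples with both others. No member was called higher (limma; 0 also at an unadjusted p under 0.05) and 4 were called lower (Tlr2, Tlr4, Tlr5 and Tlr9), where 23.8% of all tested genes were called higher and 29.2% lower. All 10 estimates were below 0, with a median of -0.59 against -0.02 over all tested genes. Without control replicate 2 the number called lower was 7, as Tlr7, Tlr8 and Myd88 passed. Without both samples that held seminal vesicle transcripts it was 5, an alternative chosen after seeing the data.

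**Figure D2:**
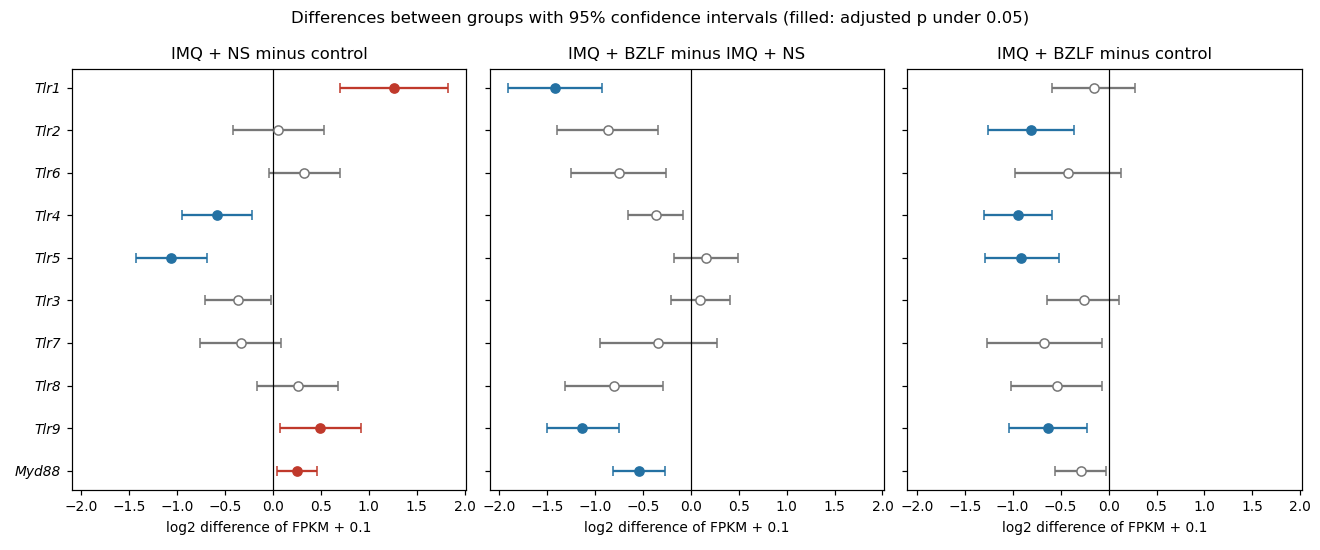
Difference of the group means on the log2(FPKM + 0.1) scale with its 95% confidence interval, 1 panel per comparison and 1 row per gene, filled where the adjusted p from limma was under 0.05. Tlr1 lies at 1.26 in the first panel and -1.42 in the second, and all 10 points lie left of 0 in the third.

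Tlr1, whose product pairs with TLR2 to detect triacylated lipoproteins, measured 1.84, 1.68, 2.19 and 1.25 FPKM in control replicates 1 to 4. It measured 3.2, 3.48, 6.6 and 4.4 FPKM in the IMQ + NS samples. After BZLF it measured 1.29, 1.73, 1.76 and 1.38 FPKM. Every IMQ + NS sample lay above every other sample, and the IMQ + BZLF and control ranges overlapped. The log2 difference was 1.26 ± 0.25 (SE) for IMQ + NS against control (adjusted p = 0.0027, limma) and -1.42 ± 0.22 for IMQ + BZLF against IMQ + NS (adjusted p = 0.00864). Both calls held in all 19 alternative fits, which used other constants, filters, scalings or variance models, all samples in 1 fit, a replicate block or 1 sample fewer. Against control, Tlr1 after BZLF differed by -0.15, with a 95% confidence interval of -0.59 to 0.28.

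Tlr6 forms the other TLR2 dimer, which detects diacylated lipoproteins. Its levels were 1.24, 0.963, 1.47 and 1.10 FPKM in control, 1.24, 1.58, 1.69 and 1.55 FPKM in IMQ + NS and 0.499, 1.11, 0.947 and 0.983 FPKM in IMQ + BZLF samples. The last 2 of these groups did not overlap, but the log2 difference of -0.75 ± 0.22 was not called (adjusted p = 0.0786, limma). The ratio of Tlr1 to Tlr6 was 1.14 to 1.75 in control, 2.20 to 3.91 in IMQ + NS and 1.40 to 2.59 in IMQ + BZLF samples. This ratio rests on a pair of genes whose reads could have been shared, as shown by the stretches above.

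Tlr2, the common partner of both, was not called in IMQ + NS against control. It measured 4.72, 3.65, 5.43 and 4.54 FPKM in control and 3.37, 4.78, 6.82 and 4.50 FPKM in IMQ + NS samples. The estimate of 0.05 had an interval of -0.42 to 0.53, and its sign changed with the scaling and without control replicate 2 (-0.05) or IMQ + NS replicate 3 (-0.12). After BZLF Tlr2 measured 1.73, 3.12, 2.69 and 2.90 FPKM, below every sample of both other groups. Against IMQ + NS this was -0.86 ± 0.23 and not called (adjusted p = 0.0608, limma), although it passed without IMQ + NS replicate 1 (adjusted p = 0.0367). Against control Tlr2 was called lower, by -0.81 ± 0.20 (adjusted p = 0.00901).

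Tlr4, the lipopolysaccharide receptor, had its highest levels in control skin, with 4.96, 3.49, 5.4 and 4.55 FPKM. It measured 2.53, 3.01, 3.58 and 3.0 FPKM in IMQ + NS and 2.01, 2.31, 2.27 and 2.70 FPKM in IMQ + BZLF samples. The control and IMQ + NS ranges overlapped only through control replicate 2. Tlr4 was lower by -0.58 ± 0.16 in IMQ + NS than in control (adjusted p = 0.0142, limma), a call that held in all 19 alternatives though it is below a log2 fold limit of 1. Against IMQ + NS it was -0.36 after BZLF (adjusted p = 0.131), and against control it was -0.94 (adjusted p = 0.0014).

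Tlr5, the flagellin receptor, was lower under IMQ with and without BZLF. It measured 1.98, 1.69, 2.57 and 2.19 FPKM in control, 1.04, 0.779, 0.937 and 1.04 FPKM in IMQ + NS and 0.893, 0.985, 1.19 and 1.23 FPKM in IMQ + BZLF samples. No IMQ-treated sample reached the lowest control. The log2 difference from control was -1.06 ± 0.16 for IMQ + NS (adjusted p = 0.000713, limma) and -0.91 ± 0.17 for IMQ + BZLF (adjusted p = 0.00232). The 2 IMQ-treated groups overlapped, with a difference of 0.16 and an interval of -0.17 to 0.49.

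Among the endosomal receptors, Tlr7 encodes the single-stranded RNA sensor that IMQ activates. Its levels were 3.68, 2.67, 3.76 and 3.62 FPKM in control, 2.44, 3.58, 2.87 and 2.05 FPKM in IMQ + NS and 1.18, 2.25, 3.01 and 2.41 FPKM in IMQ + BZLF samples. Each group overlapped the next, and the means fell in the order control, IMQ + NS, IMQ + BZLF. The log2 difference was -0.33 for IMQ + NS against control, with an interval of -0.76 to 0.09 (adjusted p = 0.156, limma). Without control replicate 2, the lowest control, it was -0.45 and passed (adjusted p = 0.0488). For IMQ + BZLF against IMQ + NS it was -0.34, with an interval of -0.95 to 0.27 (adjusted p = 0.504). For IMQ + BZLF against control it was -0.67 (adjusted p = 0.058), and it passed without control replicate 2 (adjusted p = 0.0311) or IMQ + BZLF replicate 3 (adjusted p = 0.0325).

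Tlr8, next to Tlr7 on the X chromosome, encodes a related receptor. It measured 2.81, 2.5, 3.28 and 2.35 FPKM in control, 2.51, 3.60, 4.37 and 2.87 FPKM in IMQ + NS and 1.19, 2.29, 2.06 and 2.0 FPKM in IMQ + BZLF samples. All 4 IMQ + BZLF samples lay below every sample of the other groups. The difference of IMQ + BZLF from IMQ + NS was -0.80 ± 0.23 (adjusted p = 0.0704, limma), and that from control -0.54 ± 0.21 (adjusted p = 0.0551). The latter passed without control replicate 2 (adjusted p = 0.0484) or IMQ + BZLF replicate 2 (adjusted p = 0.0478).

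Tlr9, the receptor for unmethylated CpG DNA, was lower after BZLF than in both other groups. It measured 1.80, 1.45, 1.80 and 1.20 FPKM in control and 1.73, 2.10, 2.79 and 2.36 FPKM in IMQ + NS samples. After BZLF it measured 0.764, 0.997, 1.13 and 0.985 FPKM. The IMQ + BZLF samples lay below every other sample, and IMQ + NS replicate 1 lay within the control range. The fall after BZLF was -1.13 ± 0.17 (adjusted p = 0.00718, limma) and was called in all 19 alternatives. The higher level in IMQ + NS than in control, 0.49 ± 0.19 (adjusted p = 0.0476), was called in 7 of 19 alternatives. It was lost without any 1 of the 4 controls or IMQ + NS replicates 2, 3 or 4, with adjusted p from 0.0517 to 0.124. Against control, IMQ + BZLF was lower by -0.63 ± 0.18 (adjusted p = 0.0166), and without control replicate 3 the adjusted p was 0.0502.

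Tlr3, the double-stranded RNA receptor that signals through TRIF and not MyD88, was called in none of the comparisons. It measured 2.07, 1.72, 2.56 and 1.92 FPKM in control, 1.81, 1.5, 1.63 and 1.36 FPKM in IMQ + NS and 1.42, 1.79, 1.57 and 2.03 FPKM in IMQ + BZLF samples. All groups overlapped. The difference of IMQ + NS from control was -0.36 (adjusted p = 0.0697, limma), and it passed without control replicate 2 (adjusted p = 0.0228). That of IMQ + BZLF from IMQ + NS was 0.10, with an interval of -0.21 to 0.41.

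Myd88, the shared adaptor, measured 21.9, 21.0, 23.6 and 23.4 FPKM in control, 22.9, 26.5, 29.5 and 28.5 FPKM in IMQ + NS and 16.0, 16.2, 19.6 and 22.1 FPKM in IMQ + BZLF samples. IMQ + NS replicate 1 lay within the control range, and all IMQ + BZLF samples lay below all IMQ + NS samples. Myd88 was higher by 0.25 ± 0.09 in IMQ + NS than in control (adjusted p = 0.0477, limma), a call kept in 6 of 19 alternatives. It was lost without any 1 of the controls or IMQ + NS replicates 2, 3 or 4 (adjusted p from 0.0621 to 0.124), and the estimate was 0.12 with samples rescaled to equal sums. After BZLF Myd88 was lower by -0.54 ± 0.12 than in IMQ + NS (adjusted p = 0.0312), a call kept in 11 of 19 alternatives. It was lost without IMQ + NS replicates 2, 3 or 4, or IMQ + BZLF replicates 1, 2 or 3, with adjusted p from 0.0527 to 0.0923 and estimates from -0.58 to -0.48. Against control Myd88 was -0.29 (adjusted p = 0.0607), and it passed without control replicate 2 (adjusted p = 0.0403) or IMQ + BZLF replicate 4 (adjusted p = 0.0195).

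Single samples were alike across members. IMQ + BZLF replicate 1 was the lowest of its group for all 10 members, and control replicate 2 for 7. IMQ + NS replicate 3 was the highest of its group for 7 and IMQ + NS replicate 1 the lowest for 7. Two-sided exact permutation tests of the 30 member differences gave the smallest p that 4 against 4 samples allow, 0.0286, in 13 cases, and 0.0659 after adjustment over the 30 tests. These are the cases without overlap. In IMQ + NS against control 1 member was higher and 1 lower without overlap, beside 3624 and 3927 of all 15288 tested genes. In IMQ + BZLF against IMQ + NS it was 0 and 6, beside 648 and 1672. In IMQ + BZLF against control it was 0 and 5, beside 2971 and 4291.

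Sequences near the starts of the genes with calls after BZLF are shown, since Tlr1, Tlr9 and Myd88 were lower together. RefSeq (GRCm38.p6) windows of 250 bases before an annotated start were at hand for 8 of 10 members, as 10 windows. They were searched on both strands for GAGGAAG, a core of ETS factors such as PU.1, for TGANTCA (AP-1), for GAAANNGAAA (interferon response) and for GGGANNNNCC (NF-kappa B). Of 32851 windows in the reference, these occur in 10.6%, 6.75%, 2.98% and 17.6%, in that order. Capitals mark the matches, and a match says only that the letters are present. The Tlr9 window (chr9:106222348-106222597, plus strand) holds GAGGAAG and TGANTCA. The Tlr1 window, shown up to the annotated gene (chr5:64933564-64933808, minus strand), holds GAGGAAG. A second Tlr1 window, wholly inside the annotated gene, held none of the 4 motifs. The only Myd88 window precedes a RefSeq start within the gene, lies wholly inside the gene as GENCODE annotates it, 1143 bases after its first base, and overlaps its untranslated sequence. From it 30 bases around the GAAANNGAAA match are shown (chr9:119340039-119340068, minus strand).
Tlr9: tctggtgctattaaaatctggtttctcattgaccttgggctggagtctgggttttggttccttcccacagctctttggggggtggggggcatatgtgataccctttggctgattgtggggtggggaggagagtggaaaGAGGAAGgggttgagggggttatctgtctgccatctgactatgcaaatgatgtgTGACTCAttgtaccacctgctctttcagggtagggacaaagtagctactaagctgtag
Tlr1: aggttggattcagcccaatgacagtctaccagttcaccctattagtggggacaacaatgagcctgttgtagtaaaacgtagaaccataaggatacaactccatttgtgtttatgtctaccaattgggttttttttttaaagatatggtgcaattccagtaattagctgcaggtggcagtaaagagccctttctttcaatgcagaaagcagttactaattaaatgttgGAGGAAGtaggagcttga
Myd88: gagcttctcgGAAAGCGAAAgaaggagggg

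In the other windows, GGGANNNNCC occurred in those of Tlr2, Tlr3 and Tlr5, and GAAANNGAAA in 1 of the 2 windows of Tlr6. The window of Tlr8 and the other window of Tlr6 held none of the 4 motifs. Of the 10 windows 4 lay wholly and 3 partly inside the annotated gene.

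The genes with the most similar pattern over the 12 samples were sought among 12656 other genes with a mean of at least 1 FPKM, by Pearson's r of log2(FPKM + 0.1). These values are descriptions, because the 12 points share 3 groups and the same libraries. For Tlr1 they were Tor4a (0.990), Pilra (0.986), Igsf6 (0.980), Csf3r (0.961) and Cxcl13 (0.959). Csf3r, the receptor of the neutrophil growth factor G-CSF, averaged 2.88 FPKM in control, 14.8 FPKM in IMQ + NS and 2.54 FPKM in IMQ + BZLF samples. Cxcl13, a chemokine that attracts B cells, averaged 11.6, 67.6 and 12.9 FPKM.

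For Tlr9 the closest genes were C3ar1 (0.979), Rac2 (0.978), Pirb (0.975), Itgb2 (0.974) and Nfam1 (0.973). Itgb2, the common beta chain of the leukocyte integrins, averaged 13.2, 25.9 and 7.71 FPKM in the 3 groups, and C3ar1, the receptor of complement C3a, 5.79, 8.08 and 3.89 FPKM. For Myd88 they were Tifab (0.960), Slc15a3 (0.958), Smim3 (0.955), Hdc (0.947) and Cytip (0.941). Hdc, the histamine-forming enzyme, averaged 2.29, 4.96 and 1.94 FPKM. For Tlr7 they were Jaml (0.927), Dram2 (0.926), Otulinl (0.922), Myct1 (0.914) and Fcgr3 (0.913), all with their highest mean in control skin. Fcgr3, an Fc receptor of myeloid cells, averaged 23.7, 17.8 and 13.9 FPKM.

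Markers of cells that carry these receptors differed between the groups as well. The 11 neutrophil markers summed to 34.0 to 53.1 FPKM in control, 3150 to 9920 FPKM in IMQ + NS and 69.1 to 93.1 FPKM in IMQ + BZLF samples. All 11 were called higher in IMQ + NS than in control, and 10 of 11 lower in IMQ + BZLF than in IMQ + NS. Most of the sum came from S100a8 and S100a9, which inflamed keratinocytes also express and which together measured 3110 to 9830 FPKM in IMQ + NS samples. The other 9 markers summed to 7.04 to 11.4 FPKM in control, 41.3 to 90.7 FPKM in IMQ + NS and 9.25 to 16.8 FPKM in IMQ + BZLF samples. Both neutrophil sums were highest in IMQ + NS replicate 3, the sample with the highest Tlr1 and Tlr9 levels, and lowest of that group in replicate 1, with the lowest. This order was not particular to neutrophil markers. Replicate 3 also had the highest keratinocyte (8080 FPKM), macrophage and monocyte (1810 FPKM) and B cell (8.01 FPKM) sums of that group. Its fibroblast sum was the lowest of the group (3680 FPKM). The macrophage and monocyte sum was likewise lowest of the group in replicate 1 (1220 FPKM).

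The 11 macrophage and monocyte markers summed to 1880 to 2620 FPKM in control, 1220 to 1810 FPKM in IMQ + NS and 825 to 1250 FPKM in IMQ + BZLF samples. Of these, 2 were called higher and 7 lower in IMQ + NS than in control. In IMQ + BZLF against IMQ + NS 3 were called lower, and against control 10 were. IMQ + BZLF replicate 1, with the lowest Tlr7 of all samples (1.18 FPKM), also had the lowest macrophage sum. This was not particular to macrophages. The same sample was lowest of its group for the keratinocyte (2660 FPKM), T cell (6.94 FPKM), endothelial (65.1 FPKM) and fibroblast (4290 FPKM) sums. Its hair shaft sum was the highest of the group (18100 FPKM). None of the neutrophil or macrophage and monocyte markers was at 0 throughout a group, and the part of either cell type in the receptor levels was not tested.

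For plasmacytoid dendritic cells, which carry much TLR7 and TLR9 in mice, the marker Siglech measured 2.05, 0.59, 2.23 and 2.49 FPKM in control samples and 0.263 to 0.405 FPKM in IMQ + NS samples. The sum of their 8 markers was 66.2 to 178 FPKM in control and 18.5 to 26.1 FPKM in IMQ + NS samples, mostly from Cox6a2, which muscle also expresses. Of the 7 of these markers that were tested, 2 were called lower in IMQ + NS than in control (Siglech and Cox6a2) and 1 higher (Pacsin1, 1.09), so the list did not move in 1 direction. Conventional dendritic cell markers summed to 35.3 to 64.9 FPKM in control, 12.7 to 14.8 in IMQ + NS and 7.06 to 14.1 in IMQ + BZLF samples. Of these 8, 4 were called lower and 1 higher in IMQ + NS than in control. Langerhans cell markers summed to 1460 to 2410, 606 to 761 and 551 to 839 FPKM in the same order. Of these 6, 4 were called lower and 2 higher in IMQ + NS than in control. For B cells 7 markers summed to 1.66 to 2.98 FPKM in control, 5.81 to 8.01 FPKM in IMQ + NS and 1.76 to 3.52 FPKM in IMQ + BZLF samples, with the IMQ + NS samples above all others. Cd79b, a chain of the B cell receptor, was called higher in IMQ + NS than in control (1.62) and lower after BZLF (-1.39). At a mean of 4.18 FPKM in IMQ + NS samples, Cd79b made up much of that sum. Only 4 of the B cell markers passed the filter and were tested. Of these, 3 were called higher in IMQ + NS than in control, and only 1, Cd79b, lower after BZLF. Keratinocyte markers summed to 5190 to 8080 FPKM in IMQ + NS and 2660 to 4670 FPKM in IMQ + BZLF samples. The part of these cells was not tested.

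**Figure D3:**
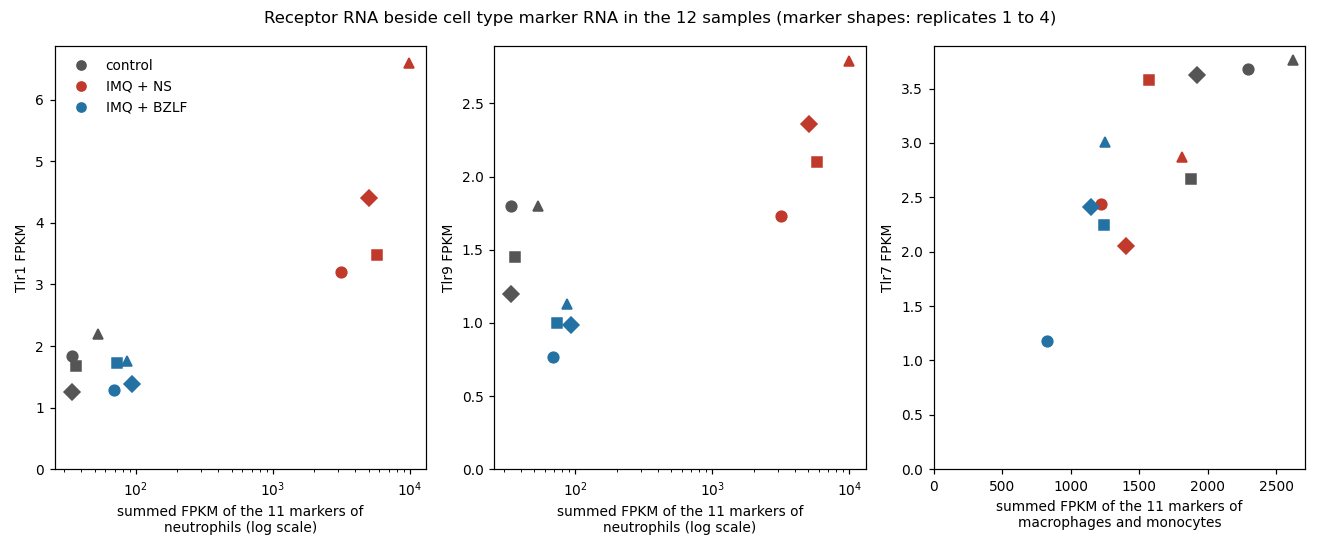
FPKM of Tlr1 and Tlr9 against the summed FPKM of 11 neutrophil markers (log axis) and of Tlr7 against the sum of 11 macrophage and monocyte markers, 1 point per sample, colours for groups and shapes for replicates. The IMQ + NS samples hold neutrophil sums of 3150 to 9920 FPKM, apart from the other groups. These sums come mostly from S100a8 and S100a9 (41.3 to 90.7 FPKM in the other 9 markers). The lowest Tlr7 point is IMQ + BZLF replicate 1, which was lowest of its group for all 10 members and for several other marker sums.

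The rest of the pathway was read through 90 genes in 9 lists by role, of which 89 were in the table and 87 were tested. In IMQ + NS against control 23 (26.4%) were called higher and 19 (21.8%) lower, which is no more than the 29.0% and 27.1% of all tested genes. In IMQ + BZLF against IMQ + NS none was higher and 22 (25.3%) were lower (limma), against 1.28% and 5.17% of all tested genes. At an unadjusted p under 0.05, 2 were higher and 42 lower, beside 1217 and 2258 of all 15288 tested genes. Without IMQ + BZLF replicate 2, left out after seeing the data, 12 were lower and none was higher. That fit called 440 of all tested genes lower and 59 higher, instead of 791 and 195. The median log2 difference of the 87 was 0.04 and -0.30, beside 0.05 and -0.02 over all tested genes. In IMQ + BZLF against control 6 (6.9%) were higher and 45 (51.7%) lower, against 23.8% and 29.2% of all tested genes. The counts by role are small and stand beside these same background shares.

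Of the other mouse receptors, Tlr13, a sensor of bacterial ribosomal RNA, was higher in IMQ + NS than in control and lower after BZLF. It measured 1.5, 1.67, 2.36 and 1.85 FPKM in control, 3.82, 5.03, 5.78 and 4.4 FPKM in IMQ + NS and 1.57, 1.95, 2.63 and 2.92 FPKM in IMQ + BZLF samples. The IMQ + NS samples lay above all others, with log2 differences of 1.32 ± 0.18 from control (adjusted p = 0.000347, limma) and -1.06 ± 0.20 after BZLF (adjusted p = 0.0167), the latter not called without IMQ + BZLF replicate 2. Tlr11 was lower in IMQ + NS than in control, by -1.41 (adjusted p = 0.000369), at a mean of 0.727 FPKM. Tlr12 was called higher there by 0.80, at a mean of 0.116 FPKM, though not without control replicate 2.

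Of the 14 co-receptors, chaperones and proteases, 1 was called higher and 2 lower in IMQ + NS than in control. Cd36, a scavenger receptor that also serves TLR2, was lower by -1.16 and the chaperone Cnpy3 by -0.34, and the protease Ctsl was higher by 0.36. After BZLF 4 were called lower than in IMQ + NS, namely Cd180 (-1.09), a TLR-like protein of B cells and myeloid cells, the lysosomal protease gene Ctss (-1.02), the lipopolysaccharide-binding protein gene Lbp (-0.90) and Unc93b1 (-0.63). The number was 2 without IMQ + BZLF replicate 2. Unc93b1, which carries the endosomal receptors out of the endoplasmic reticulum, averaged 49.6, 49.7 and 32.2 FPKM in control, IMQ + NS and IMQ + BZLF samples. Its IMQ + NS and IMQ + BZLF ranges did not overlap (adjusted p = 0.034, limma). Cd14, the co-receptor of TLR4, was not called in IMQ + NS against control (-0.55) or after BZLF (-0.72, adjusted p = 0.125) and was lower in IMQ + BZLF than in control (-1.27, adjusted p = 0.00368).

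Of 16 kinases and ubiquitin ligases below MyD88, 6 were called higher and 1 lower in IMQ + NS than in control. After BZLF 1 of the 16 was called lower than in IMQ + NS, the kinase gene Map3k8 (-0.32), and 0 without IMQ + BZLF replicate 2. Traf6, the ubiquitin ligase of the cascade, measured 5.55 to 6.71 FPKM in control and 8.72 to 9.18 FPKM in IMQ + NS samples, higher by 0.59 ± 0.09 (adjusted p = 0.000656, limma). After BZLF it was at 7.99 to 8.84 FPKM, with a difference of -0.07 (adjusted p = 0.506). Tab3 (0.87), Map3k8 (0.73) and Traf6 had the largest calls upward, and Irak1, a kinase recruited by MyD88, was lower by -0.26 (adjusted p = 0.011). Irak4, the first kinase of the complex, was not called in either (0.14 and -0.29).

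Among the other 4 adaptors Tirap, which bridges MyD88 to TLR2 and TLR4, was higher in IMQ + NS than in control by 0.48 (adjusted p = 0.00892, limma). Sarm1 was called lower there at a mean of 0.112 FPKM, close to the filter of 0.1 FPKM, though not without control replicate 2. None of the 4 was called after BZLF (limma), and 2 were lower at an unadjusted p under 0.05. Of 12 negative regulators, 1 was higher and 4 were lower in IMQ + NS than in control. Irak3, which blocks release of the IRAK kinases and was the higher one, was up by 0.32 (adjusted p = 0.0138) and down by -0.62 after BZLF (adjusted p = 0.0186). Dusp1 (-3.27), Atf3 (-1.91) and Trim30a (-0.69) were the largest falls in the lesion, and Nfkbia (-0.54) was the other one after BZLF. The controls were split for the first 2 genes. Dusp1 measured 118, 95, 322 and 340 FPKM in control and 16.8 to 20.6 FPKM in IMQ + NS samples. Atf3 measured 7.32, 6.01, 37.9 and 38.8 FPKM in control and 3.28 to 4.67 FPKM in IMQ + NS samples. Without IMQ + BZLF replicate 2 neither Irak3 nor Nfkbia was called after BZLF. Of 6 further receptors that use MyD88, 2 were called higher and 1 lower in IMQ + NS than in control. Il1rl2, a chain of the IL-36 receptor, was higher by 0.32 (adjusted p = 0.0143, limma). Il18rap, a chain of the IL-18 receptor, was higher by 1.46 and then lower after BZLF (-1.24), at a mean of 0.625 FPKM. Il18r1, the other chain, was lower by -0.76 at a mean of 0.961 FPKM.

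Of 11 transcription factors, 2 were higher in IMQ + NS than in control, Rel (0.72) and Nfkb1 (0.33), and 3 were lower, Fos (-4.17), Irf7 (-0.83) and Relb (-0.29). Fos was split among the controls, at 97.7, 107, 293 and 313 FPKM, and measured 8.16 to 14.6 FPKM in IMQ + NS samples. After BZLF 5 were lower than in IMQ + NS (1 without IMQ + BZLF replicate 2), with Irf8 (-0.55), Nfkb2 (-0.52) and Nfkb1 (-0.50) the largest. Irf7, which drives interferon genes below TLR7 and TLR9, measured 28.4, 15.8, 30.5 and 21.4 FPKM in control and 9.48 to 18.1 FPKM in IMQ + NS samples. These ranges overlapped, and after BZLF Irf7 measured 12 to 12.9 FPKM (-0.07, adjusted p = 0.865, limma).

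Target genes were read in 2 sets, both drawn up with earlier results of these data known. The NF-kappa B set holds Il1b, Cxcl2 and Ptgs2, core targets that the paper drew from the same RNA-seq. It also holds Tnf and Cxcl1, which the paper reported as lowered by BZLF. All of these genes were among those called lower after BZLF. The counts of this set are therefore descriptions and no independent readout of the pathway. Of 12 tested NF-kappa B target genes, 8 were called higher and none lower in IMQ + NS than in control, and 8 were lower and none higher after BZLF (limma). At an unadjusted p under 0.05 the counts were 8 and 0 in the lesion and 9 lower and 0 higher after BZLF, and without control replicate 2 the lesion had 8 called higher and 2 lower. Cxcl2, a neutrophil chemokine, measured 1.98, 3.91, 24.2 and 7.62 FPKM in IMQ + NS samples and at most 0.708 FPKM in control samples, and after BZLF its highest value was 0.0234 FPKM, with replicates 1 and 2 listed at 0. Il1b, the cytokine IL-1 beta, measured 5.08 to 6.44 FPKM in control, 12, 17.2, 55.1 and 29.7 FPKM in IMQ + NS and 1.44 to 3.01 FPKM in IMQ + BZLF samples, without overlap between groups. Ccl4 was higher by 2.15 in IMQ + NS and lower by -3.60 after BZLF.

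Of 9 tested interferon target genes none was called higher and 6 were called lower in IMQ + NS than in control, and none was called after BZLF (limma). At an unadjusted p under 0.05, 1 was higher and 7 lower in the lesion and 0 differed after BZLF. Usp18, which damps interferon receptor signals, measured 14.1, 8.43, 15.2 and 12.3 FPKM in control, 1.47, 0.945, 2.18 and 1.53 FPKM in IMQ + NS and 1.35 to 2.90 FPKM in IMQ + BZLF samples. It was lower by -2.97 ± 0.26 in IMQ + NS than in control (adjusted p = 4.06e-05, limma), followed by Ifit3 (-1.94) and Ifit2 (-1.46). Isg15 was not called, at 0.70.

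In IMQ + BZLF against control the shares called lower by role rest on small lists and stand beside 29.2% of all tested genes. The share was 18.8% for the kinases and ubiquitin ligases, 16.7% (1 of 6) for the further receptors that use MyD88 and 33.3% (1 of 3) for the other mouse receptors. It was 50% (2 of 4) for the other adaptors. For the co-receptors, the transcription factors, the negative regulators and both sets of target genes it was 58.3% to 77.8%. Of the co-receptors, chaperones and proteases 9 of 14 were called lower and none higher (limma; 0 higher also at an unadjusted p under 0.05), with Cd14, Ctss (-0.91) and Lbp (-0.89) the largest. Ticam2, the adaptor gene that links TLR4 to TRIF, was lower by -1.06. Of the 16 kinases and ubiquitin ligases 5 were higher, led by Tab3 (0.91), Traf6 (0.52) and Map3k7 (0.45), and 3 were lower, namely Btk (-0.82), Ikbke (-0.37) and Irak1 (-0.26).

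Of 11 transcription factors 7 were lower than in control, with Fos (-5.09), Irf7 (-0.91) and Irf8 (-0.80) the largest, and of 12 negative regulators 8 were lower, with Dusp1 (-3.28), Atf3 (-1.95) and Trim30a (-1.15) the largest. The size of the differences in Fos, Dusp1 and Atf3 rests on controls that were split, as given above. Of the NF-kappa B target genes 7 of 12 were lower, with Tnf (-2.38), Ccl3 (-1.88) and Cxcl2 (-1.84) the largest, whereas Il1a, the cytokine IL-1 alpha, was higher by 1.67. Of the interferon target genes 7 of 9 were lower, with Usp18 (-2.51), Ifit3 (-1.85) and Oasl1 (-1.67) the largest. Over all 87 genes the counts were 10 higher and 46 lower without control replicate 2, and 10 higher and 42 lower without both samples that held seminal vesicle transcripts. Of all 15288 tested genes the first fit called 5366 higher and 4744 lower, and the second 5194 and 4419.

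**Figure D4:**
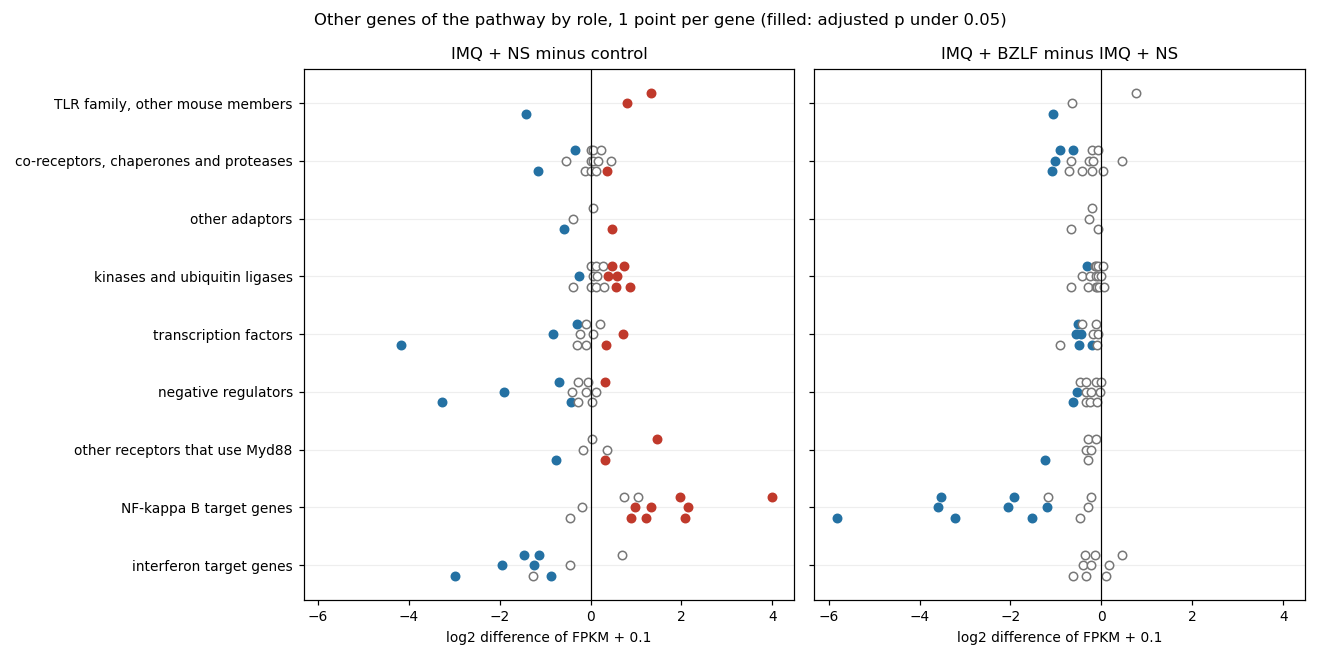
Log2 difference of FPKM + 0.1 for the 87 tested pathway genes, 1 point per gene and 1 row per role, for IMQ + NS minus control (left) and IMQ + BZLF minus IMQ + NS (right), filled where the adjusted p from limma was under 0.05. Of the NF-kappa B target genes 8 are filled to the right on the left panel and 8 to the left on the right panel, while the interferon target genes have 6 filled points on the left panel and none on the right. The lists were drawn up with earlier results of these data known.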

How the data were processed

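The authors deposited 1 table of FPKM for 18505 genes in 12 samples. Per the study's methods, they aligned reads with Bowtie2 to mRNA and lncRNA transcripts and computed FPKM with eXpress. The submitters' processing notes instead name fastp, HISAT2, HTSeq, R 3.2.0 and mm10, and the labels name another extraction reagent and library kit than the methods. FPKM divides by length and library size, so it holds no counts, and of 17727 low values 18.0% were whole multiples of the lowest one for their gene (tolerance 0.05), so reads were not rebuilt and no count test was run.

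The 15288 genes averaging at least 0.1 FPKM were tested as log2(FPKM + 0.1) by limma 3.58.1 in R 4.3.3 with trended variances, for each pair of groups of 4, without a fold limit. P-values were adjusted over all tested genes. Exact permutation tests, levels and similar genes were computed in Python 3.11.15 with pandas 2.3.3 and numpy 2.4.6. The steps were tested on simulated data.

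The members and the lists were chosen with earlier results of these data known. All 10 members are named. From each pathway list, genes with the largest differences among those called with a mean of at least 1 were named, up to 3 in each direction, plus Cd14, Unc93b1, Tirap, Irak1, Irak3, Irak4, Traf6 and Irf7. Tlr11, Tlr12, Il18rap, Il18r1, Sarm1, Isg15, Siglech, Pacsin1, Cd79b, Cox6a2 and Acaa1a were named outside this rule after their values were seen. A B cell marker is not reported here. Coordinates and transcripts are from GENCODE vM21, and promoter windows from RefSeq.

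Alternatives were a constant of 0.01 or 1, no filter or a mean of at least 1, median ratio scaling, equal sums, quantile normalization, 1 fit of all 12 samples, untrended or robust variances, a replicate block, unadjusted p, a log2 fold limit of 1 and each sample left out.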

Additional observations from a re-analysis of the deposited data

Results flagged for a closer look

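Of the 30 groups of 4 samples formed by the 10 members, 1 held a sample far from the other 3. Tlr7 in control replicate 2 was 2.67 FPKM, below the other controls at 3.62 to 3.76 FPKM, and its gap to the nearest control, divided by the range of the group, was above Dixon's critical value for 4 samples. Chance flags about 1 in 20 groups. The same sample held seminal vesicle and hair shaft transcripts. Their part in this level was not tested.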

How the results depend on the processing

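FPKM carries no depth, so the sampling error of single values cannot be estimated. Rescaling to equal sums moved the median log2 difference of all genes in IMQ + NS against control from 0.053 to -0.073, and in IMQ + BZLF against control from -0.018 to -0.115, so changes of about 0.1 depend on the scaling. Of the 210, 210 and 220 alternative values of single members in the 3 comparisons (IMQ + NS against control, IMQ + BZLF against IMQ + NS, IMQ + BZLF against control), 174, 192 and 194 kept their direction and their side of the threshold. The cause of each change below was not tested.

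The number of members called higher in IMQ + NS than in control, 3, was 1 (Tlr1) under median ratio scaling, equal sums, quantile normalization, the replicate block or the fold limit, and 1 to 3 with 1 sample left out. The number called lower, 2, was 1 with the fold limit and 2 to 4 with 1 sample left out, the 4 without control replicate 2. The number called lower in IMQ + BZLF than in IMQ + NS, 3, was 7 by unadjusted p and 2 to 4 with 1 sample left out. The number called lower in IMQ + BZLF than in control, 4, was 7 with equal sums, quantile normalization, 1 fit of all 12 samples or unadjusted p, 0 with the fold limit, and 3 to 7 with 1 sample left out. The sign of Tlr2 in IMQ + NS against control turned to -0.08 with equal sums, -0.07 with quantile normalization, -0.05 without control replicate 2 and -0.12 without IMQ + NS replicate 3, the range with 1 sample left out being -0.12 to 0.21.

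The deviations of samples with the same replicate number correlated at 0.11 to 0.26 for replicates 3 and 4 and at -0.15 to 0.09 for replicates 1 and 2. Not every pair was over 0.1 in any comparison, so the numbers were not taken to pair the samples. With the replicate number as a block, 6 members were called lower in IMQ + BZLF than in IMQ + NS, where Tlr2 (adjusted p = 0.0184), Tlr6 (0.0427) and Tlr8 (0.0197) joined by limma. The block changed no call in IMQ + BZLF against control.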
